A study of Mus musculus with 6 samples.

Results

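Lipoprotein lipolysis and fatty acid uptake was followed through 10 genes in the left ventricle of obese mice, Cd36, Fabp3, Fabp4, Fabp5, Slc27a1, Lpl, Gpihbp1, Vldlr, Pnpla2 and Lipe. They were taken by gene symbol from the array's probe-to-gene table and are 10 of 18193 genes, with 26 of 45101 probe sets. A probe set is the group of probes that reads 1 transcript, and each gives 1 signal per array in arbitrary linear units. The hearts came from 6 C57BL/6 males, of a common laboratory strain prone to diet-induced obesity, aged 6 months. High fat feeding lasted 16 weeks in both groups. Placebo was given to 3 of the mice and Lira to the other 3. Lira is the only name the labels use for the agent, and the sources used here give no dose, route or length of treatment. Every group ate the fat-rich food, so the comparison is Lira against placebo in obesity, with no lean control among these arrays.

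The heart takes most of its fuel as fatty acids. Lipoprotein lipase, made mainly by cardiomyocytes, splits the triglyceride of circulating lipoproteins on the capillary wall, where an endothelial anchor protein holds it. The freed fatty acids cross into cardiomyocytes with the help of membrane transporters, are carried in the cytoplasm by fatty acid binding proteins, and are either burned or stored in lipid droplets, from which intracellular lipases release them again.

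Each mouse gave 1 array, so the arrays are biological replicates, and their number limits the precision. Median signals of the arrays ranged from 28.6 to 39.6, and no pair of arrays shared more than 1 identical value. The ratio of 3′ to 5′ control signals, a measure of RNA integrity, lay between 0.781 and 0.830 for Gapdh and between 1.55 and 1.74 for Actb, with overlapping groups for both. Cardiomyocyte transcripts such as Myh6 (32447 with placebo and 35228 with Lira) were among the brightest signals, as in heart muscle. The labels name the left ventricle as the source but describe extraction from blood. The summed signal of the 4 tested erythroid genes was 123 to 254 on placebo and 111 to 219 on Lira arrays, the brightest of them being the globin Hbb-b2, with means of 111 and 92.3.

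None of the 10 members differed between Lira and placebo past an adjusted p of 0.05 in limma with Benjamini-Hochberg adjustment over 12735 genes. The smallest adjusted p was 0.62, for Gpihbp1, the endothelial anchor of lipoprotein lipase. At an unadjusted p under 0.05 there were 2 members, Gpihbp1 with lower and Lipe, the hormone-sensitive lipase, with higher signals in Lira hearts. That is 2 of 10, where 6.02% of all genes tested reached that level, 2.91% with higher and 3.12% with lower signals, and 0.055% (7 genes) passed after adjustment. In 3 members the groups did not overlap, Lipe above placebo and Gpihbp1 and Vldlr below it. Among all genes tested 11.4% had groups that did not overlap, 5.98% with Lira above and 5.41% with Lira below. Of the 10 members 6 had positive and 4 negative log2 differences, with a median of 0.04 beside 0.01 for all genes tested. A two-sided exact permutation test of 3 against 3 arrays cannot give a p below 0.1, so no such test was made for single members.

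**Figure D1:**
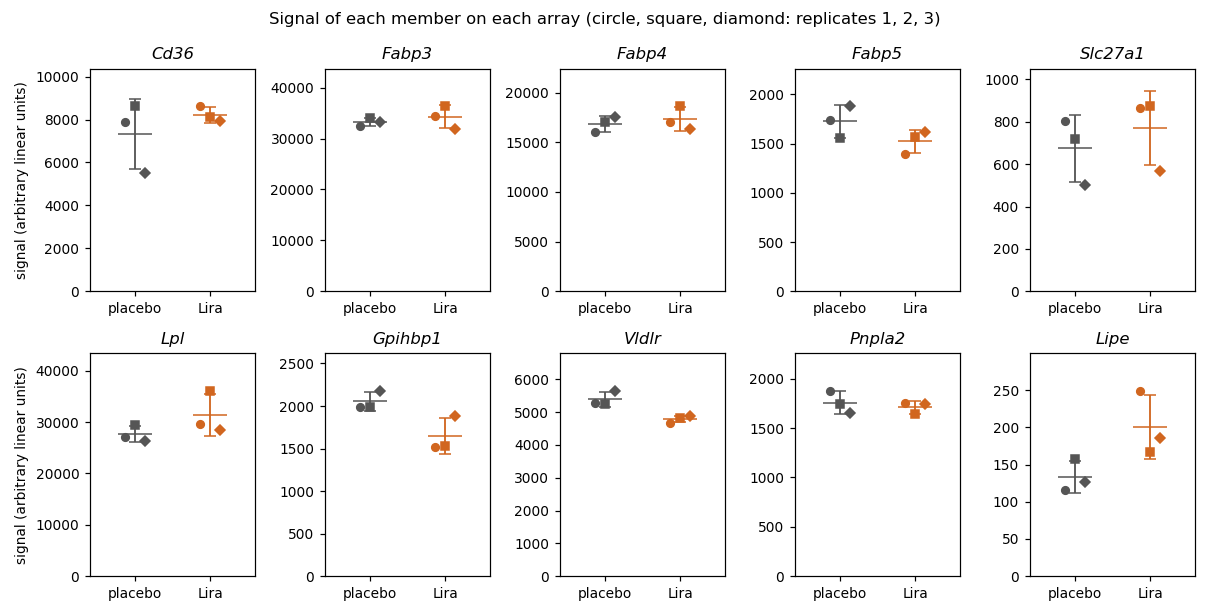
Signal of the 10 members on every array, in arbitrary linear units from 0, with placebo in grey and Lira in orange; circles, squares and diamonds are replicates 1, 2 and 3, and bars are the mean and SD of 3 arrays. Gpihbp1 and Vldlr lie lower on all Lira arrays and Lipe higher, while the other 7 members overlap.

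Lpl, which encodes lipoprotein lipase, gave signals near the top of the array, at 76.9% to 82.4% of each array's highest signal. Its brighter probe set, 1415904_at, measured 27197, 29429 and 26354 on the placebo arrays and 29607, 36154 and 28393 on the Lira arrays. Lira replicate 2 stood highest and the groups overlapped. The log2 difference, Lira minus placebo, was 0.18 ± 0.10 (adjusted p = 0.85, limma; ± after a log2 difference is the SE throughout), with a 95% interval from -0.03 to 0.38. Without Lira replicate 2 the difference was 0.07. A second, dimmer Lpl probe set, 1431056_a_at, measured 11257, 11420 and 8516 with placebo and 12737, 13632 and 12748 with Lira. There all Lira arrays lay above all placebo arrays, with a log2 difference of 0.34 ± 0.11 (unadjusted p = 0.0081, adjusted p = 0.74, from the limma fit over 24461 probe sets that is used for all probe sets other than the brightest of a gene). When single arrays were dropped it kept its sign, from 0.20 without placebo replicate 3 to 0.41 without placebo replicate 2. Both Lpl probe sets thus had the same sign, and neither passed after adjustment.

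Gpihbp1 moves lipoprotein lipase across the capillary endothelium and holds it in the vessel lumen. Its single probe set, 1453022_at, measured 1993, 1986 and 2181 on the placebo arrays and 1524, 1525 and 1886 on the Lira arrays. Every Lira value was below the lowest placebo value, with Lira replicate 3 the closest. The group means were 2053 ± 111 and 1645 ± 209 (SD, n = 3 per group), a 1.25-fold higher mean with placebo. The log2 difference was -0.32 ± 0.10 (unadjusted p = 0.0071, adjusted p = 0.62, limma), with an interval from -0.54 to -0.10. Leaving out 1 array at a time gave -0.42 to -0.27, and no processing alternative turned the sign. The unadjusted p was 0.053 with median centring, the only one of 17 alternatives above 0.05 for this gene.

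Vldlr encodes the very low density lipoprotein receptor, which binds triglyceride-rich lipoproteins and is abundant in heart. Its brightest probe set, 1434465_x_at, measured 5274, 5234 and 5656 with placebo and 4683, 4806 and 4885 with Lira. The groups did not overlap, and the log2 difference was -0.17 ± 0.08 (unadjusted p = 0.051, adjusted p = 0.82, limma). In the manufacturer's naming the ending x marks probes that can bind other transcripts as well. Vldlr has 6 probe sets, of which 5 had negative differences and 1 a positive one. The probe set 1417900_a_at measured 1622, 1609 and 1646 with placebo and 1373, 1439 and 1434 with Lira, with a log2 difference of -0.20 ± 0.09 (unadjusted p = 0.038, adjusted p = 0.87). Its unadjusted p was 0.18 with median centring and 0.056 to 0.11 with single arrays left out, all above 0.05. The probe set 1442169_at measured 688, 739 and 709 with placebo and 578, 508 and 620 with Lira, with a log2 difference of -0.32 ± 0.11 (unadjusted p = 0.011, adjusted p = 0.74), and there the unadjusted p was 0.069 with median centring and 0.057 without Lira replicate 2. On these 3 probe sets all Lira arrays were lower than all placebo arrays. The exception in sign, 1435893_at, had group means of 1754 ± 86.3 and 1796 ± 83.6 (log2 difference 0.03 ± 0.09). The remaining probe sets, 1438258_at and 1451156_s_at, had overlapping groups and differences of -0.14 ± 0.11 and -0.21 ± 0.18. Probe sets of 1 gene read the same RNA extracts and are not independent of each other.

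**Figure D2:**
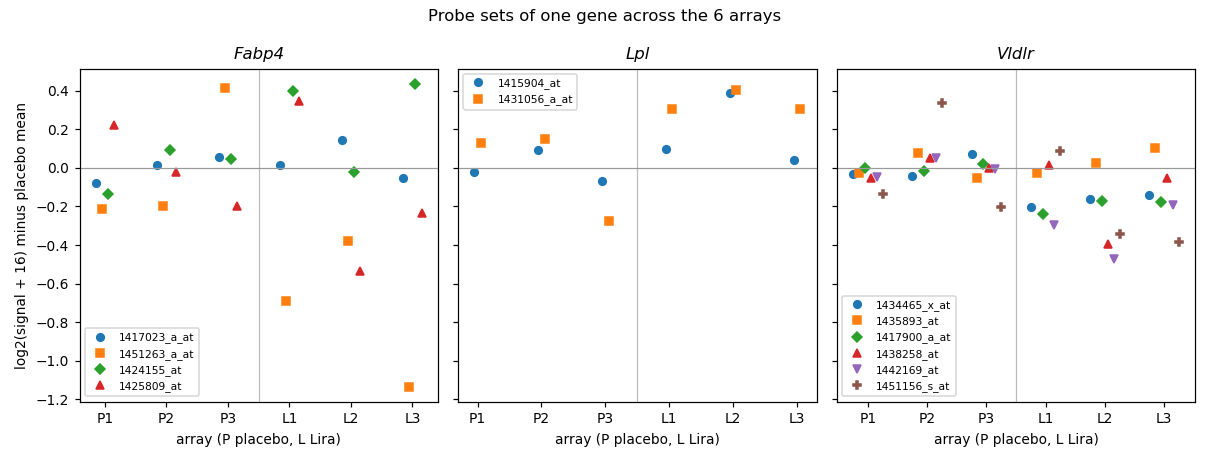
log2(signal + 16) of the Fabp4, Lpl and Vldlr probe sets on each array, minus the mean of that probe set over the placebo arrays; P1 to P3 are placebo and L1 to L3 Lira replicates, and each marker shape is a probe set. Both Lpl probe sets sit above 0 with Lira, 1 of the 6 Vldlr probe sets goes against the others in mean, and the 4 Fabp4 probe sets scatter in both directions.

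Cd36 encodes the fatty acid translocase of cardiomyocyte and capillary membranes. Its brightest probe set, 1450883_a_at, measured 7869, 8647 and 5511 on the placebo arrays and 8643, 8135 and 7911 on the Lira arrays. Placebo replicate 3 was the low value, and the other 5 arrays lay between 7869 and 8647. On the log2 scale Lira minus placebo came to 0.19 ± 0.13 (adjusted p = 0.87, limma; interval from -0.10 to 0.47). Without placebo replicate 3 it was -0.0044, so its sign rests on that array. The second probe set, 1423166_at, was also lowest on placebo replicate 3, at 6016 against 7612 to 8379 on the other arrays. The third, 1450884_at, read 3606, 3704 and 3800 with placebo and 3803, 3338 and 3448 with Lira (log2 difference -0.07 ± 0.08), and showed no low value on that array.

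Slc27a1 encodes a fatty acid transport protein, an acyl-CoA synthetase of the plasma membrane that responds to insulin. Its brighter probe set, 1422811_at, measured 805, 717 and 501 with placebo and 864, 876 and 567 with Lira. Replicate 3 was the lowest array of each group, and the groups overlapped across most of their range. The log2 difference was 0.19 ± 0.18 (adjusted p = 0.93, limma), with an interval from -0.20 to 0.58 that leaves room for differences in either direction. Without placebo replicate 3 it was -0.0091. The second probe set gave 0.15 ± 0.16.

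Fabp3 encodes the heart-type fatty acid binding protein, the main cytoplasmic carrier in cardiomyocytes. Its bright probe set, 1416023_at, measured 32516, 34002 and 33225 with placebo and 34349, 36449 and 31952 with Lira. The Lira arrays spread to both sides of the placebo arrays. This probe set ranked between 2 and 6 among all signals of an array, at 82.1% to 97.7% of each array's highest signal. Whether signals so near the top still follow RNA amounts was not tested. Lira minus placebo on the log2 scale was 0.04 ± 0.08 (adjusted p = 0.97, limma), with an interval from -0.12 to 0.21. Under quantile normalisation the difference was -0.06. The other Fabp3 probe set was dim, at 95.4 ± 15.5 and 93.1 ± 38.5 (SD, n = 3 per group).

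Fabp4, the fatty acid binding protein of fat cells, macrophages and capillary endothelium, gave different results on different probe sets. The brightest, 1417023_a_at, measured 15996, 17076 and 17570 with placebo and 17029, 18679 and 16284 with Lira, with overlapping groups. Its log2 difference was 0.04 ± 0.08 (adjusted p = 0.97, limma). The second, 1451263_a_at, measured 5887, 5940 and 9093 with placebo and 4227, 5247 and 3100 with Lira. Here every Lira array was below every placebo array, with the extremes on placebo replicate 3 and Lira replicate 3. The log2 difference was -0.73 ± 0.18 (unadjusted p = 0.0016, adjusted p = 0.54 over all probe sets in limma), the largest in size among member probe sets whose groups did not overlap and that were tested. With single arrays left out it lay between -0.91 and -0.53. 1424155_at read 484, 570 and 550 with placebo and 708, 525 and 728 with Lira (log2 difference 0.27 ± 0.13), and the dim 1425809_at gave -0.14 ± 0.22. The 95% intervals of the 2 brightest probe sets, from -0.14 to 0.22 and from -1.13 to -0.33, did not meet. No statement on a direction for Fabp4 as a gene can be made from these values.

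Fabp5, the epidermal-type binding protein that capillary endothelium and macrophages also express, had the same sign on both probe sets. The brighter, 1416021_a_at, measured 1740, 1555 and 1886 with placebo and 1390.1, 1569 and 1615 with Lira. Lira replicate 1 was the lowest array and the groups overlapped. On the log2 scale the difference came to -0.18 ± 0.10 (adjusted p = 0.87, limma), and the dimmer probe set gave -0.14 ± 0.12. The sign stayed negative with each array left out, from -0.25 to -0.11. Of the 3 binding proteins, then, Fabp3 had a narrow interval around 0, Fabp4 depended on the probe set and Fabp5 had a negative difference whose interval, from -0.39 to 0.04, included 0.

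Lipe encodes hormone-sensitive lipase, which splits diglyceride released from lipid droplets and is activated by cAMP signalling. Its probe set 1422820_at was dim, measuring 116, 157 and 126 on the placebo arrays and 250, 167 and 185 on the Lira arrays. All Lira arrays were above all placebo arrays, narrowly so for Lira replicate 2 against placebo replicate 2. The means were 133 ± 21.5 and 200.4 ± 43.6 (SD, n = 3 per group). The log2 difference was 0.53 ± 0.17 (unadjusted p = 0.0079, adjusted p = 0.64, limma), with an interval from 0.16 to 0.89. Without Lira replicate 1, the highest array, it was 0.37 with an unadjusted p of 0.054. The other Lipe probe set, 1432180_at, lay near the bottom of the signal range, between 2.74 and 46.0, with overlapping groups.

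Pnpla2 encodes adipose triglyceride lipase, which takes the first fatty acid off stored triglyceride. Its bright probe set, 1428143_a_at, measured 1880, 1739.7 and 1653 with placebo and 1753, 1638 and 1745 with Lira. The Lira values fell inside the placebo range except for replicate 2, which was just below it. limma put the log2 difference at -0.04 ± 0.09 (adjusted p = 0.98, limma; interval from -0.23 to 0.16). Its second probe set, 1428591_at, was too dim to be tested, at 17.9 to 34.6 with placebo and 4.53 to 13.9 with Lira. Averaging both probe sets of Pnpla2 gave a log2 difference of -0.42, which comes from the dim one. Among the intracellular lipases, Lipe had a higher mean with Lira, and Pnpla2 a difference near 0 on its bright probe set. Neither passed after adjustment, and the genes were not tested against each other.

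**Figure D3:**
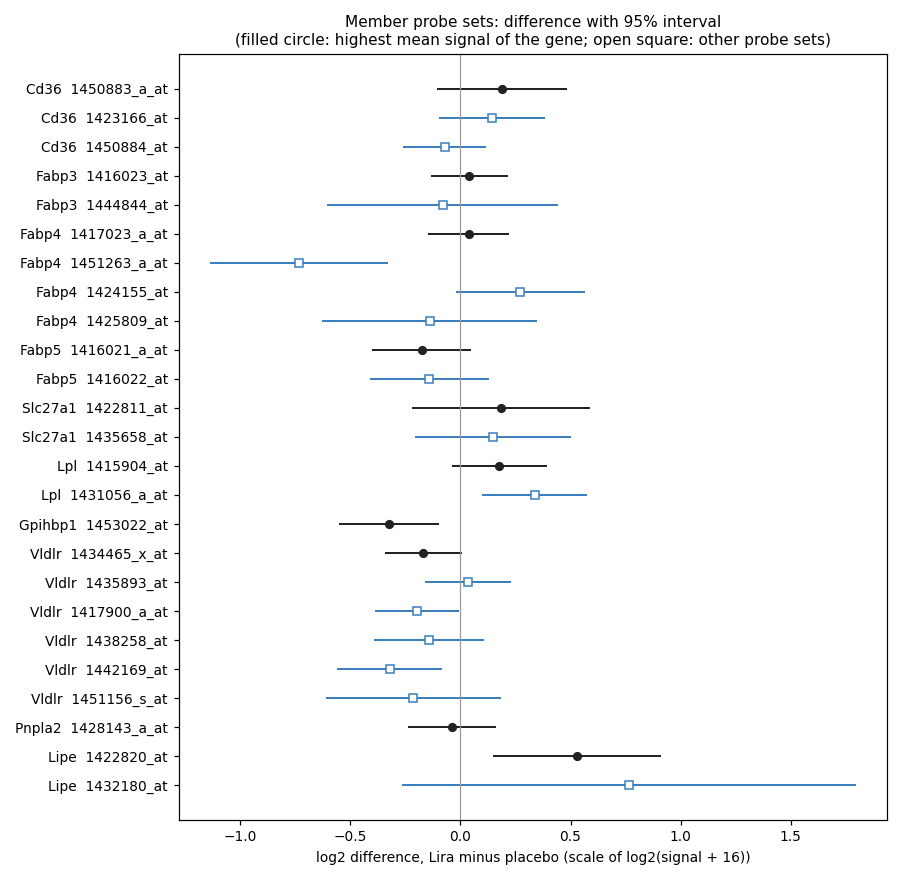
log2 difference, Lira minus placebo, of the 25 tested member probe sets with 95% intervals from limma; filled circles are the brightest probe set of each gene and open squares the others. Intervals exclude 0 for Gpihbp1 and Lipe on their brightest probe sets, and for 1 further probe set of Fabp4, 1 of Lpl and 2 of Vldlr, before any adjustment.

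Across all member probe sets, 25 of the 26 had a mean signal above the filter of 18.3 and were tested. The Lipe probe set 1432180_at, with means of 8.90 with placebo and 28.3 with Lira, passed that filter only through the Lira arrays. Of the 25 tested, 6, from 5 genes, had an unadjusted p under 0.05 (limma). Among all 24461 probe sets 5.6% did, 2.56% higher and 3.03% lower with Lira. The groups did not overlap in 7, 2 with Lira above and 5 with Lira below, beside 11.2% of all probe sets, 5.62% above and 5.57% below. 0 passed an adjusted p of 0.05, beside 0.00818% (2 probe sets) of all. Since 3 of the 7 belong to Vldlr, these counts overstate the number of separate observations.

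Promoter sequence is shown for 3 members that stand for the patterns above: Lipe, whose Lira signals were above placebo, Vldlr, whose signals were below it, and Cd36, whose groups overlapped. The sequences are from RefSeq for the mouse assembly GRCm38.p6 and cover the 250 bases before the most upstream start given for the gene, 5′ to 3′ on the strand of the gene. Lipe lies on the minus strand at chr7:25395988-25396237, Vldlr on the plus strand at chr19:27216234-27216483 and Cd36 on the minus strand at chr5:17835897-17836146. Capitals mark matches on either strand to GGGCGG (the GC box bound by Sp1), CACGTG (the E-box), the promoter element CCAAT, the promoter element TATAAA and the motif AGGTCA, the half-site of nuclear receptors, which PPAR receptors bind in pairs as dimers with RXR.
Lipe: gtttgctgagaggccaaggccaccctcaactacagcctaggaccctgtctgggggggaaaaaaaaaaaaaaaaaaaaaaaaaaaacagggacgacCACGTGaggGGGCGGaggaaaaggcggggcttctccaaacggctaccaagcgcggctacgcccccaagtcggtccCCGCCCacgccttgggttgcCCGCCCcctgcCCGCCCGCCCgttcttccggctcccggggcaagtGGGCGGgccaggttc
Vldlr: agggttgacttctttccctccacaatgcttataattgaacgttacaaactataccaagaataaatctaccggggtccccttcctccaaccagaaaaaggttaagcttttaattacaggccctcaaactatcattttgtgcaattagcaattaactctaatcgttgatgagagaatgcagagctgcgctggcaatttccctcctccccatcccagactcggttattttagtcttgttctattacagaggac
Cd36: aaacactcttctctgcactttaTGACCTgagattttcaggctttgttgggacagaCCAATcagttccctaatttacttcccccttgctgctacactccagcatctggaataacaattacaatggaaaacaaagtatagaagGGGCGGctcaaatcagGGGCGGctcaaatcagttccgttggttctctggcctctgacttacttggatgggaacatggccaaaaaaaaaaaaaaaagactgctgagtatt
The Lipe window held 6 GC boxes, some of them overlapping, and 1 E-box. The Cd36 window held 2 GC boxes, 1 CCAAT box and 1 half-site, and the Vldlr window held 0 matches. Other starts of the same genes gave other counts. A second Vldlr window, at chr19:27216770-27217019, held 1 GC box and 1 CCAAT box, and a second Lipe window, at chr7:25390113-25390362, held 0 matches. Of 32851 promoter windows of this length in the table, 32.7% held a GC box, 6.02% an E-box, 33.8% a CCAAT box, 12.4% TATAAA and 14.0% a half-site. The table matched 6 of the 10 members, with 10 windows, and Cd36 was the one of these 6 with a half-site. These are matches of letters, and the arrays cannot tell which start a transcript came from.

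The wider pathway was described by 6 further lists with 91 genes, of which 66 were tested. 31 had positive and 35 negative log2 differences, with a median of -0.02. 5 had an unadjusted p under 0.05, or 7.58%, near the 6.02% of all genes, and 0 passed after adjustment (smallest adjusted p = 0.54, limma). In 8 of the 66 the groups did not overlap, a share near the 11.4% of all genes tested.

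Among 15 tested genes of lipoprotein lipase maturation, anchoring and regulation, 11 had positive and 4 negative differences, with a median of 0.09. Hspg2, the heparan sulphate proteoglycan perlecan of basement membranes, measured 583, 563 and 674 with placebo and 506, 387 and 431 with Lira. All Lira arrays were lower, with a log2 difference of -0.45 ± 0.12 (adjusted p = 0.54, limma). Sdc1, a cell surface heparan sulphate proteoglycan, was dim at 43.9 ± 5.05 and 79.0 ± 15.5 (SD, n = 3 per group), all Lira arrays being higher (adjusted p = 0.64). Apoe, an apolipoprotein ligand of Vldlr that macrophages also make, measured 1175 ± 110 and 1414 ± 129, with overlapping groups (adjusted p = 0.75).

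Of the other lipases and lipoprotein receptors, 6 were tested, 4 with positive and 2 with negative differences, and 0 had an unadjusted p under 0.05. The receptor Lrp1 measured 342 ± 17.7 and 391 ± 11.6, without overlap of the groups (adjusted p = 0.87). The lysosomal proteins Scarb2 and Lipa gave log2 differences of 0.12 ± 0.09 and -0.17 ± 0.13. Of the other fatty acid transport and binding proteins 6 were tested, with differences between -0.11 for Cav1, the coat protein of caveolae, and 0.14 for Cavin1, its partner, with -0.08 ± 0.08 for Got2, an aminotransferase also found at the plasma membrane as a fatty acid binding protein. 9 more genes of this list, among them Fabp1, Fabp2, Fabp7 and Slc27a2, had a probe set that was too dim to be tested, with signals of at most 45.6 on any array.

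Acyl-CoA activation, the step that traps fatty acids inside the cell, had 1 positive and 9 negative differences among 10 tested genes, with a median of -0.07. The list held 12 genes, and Acsl1 and Cpt1b were not tested, so these counts do not cover them. Acsl5, an acyl-CoA synthetase, was the positive one, at 206 ± 29.2 and 269 ± 31.3 without overlap (log2 difference 0.36 ± 0.14, adjusted p = 0.75, limma). The mitochondrial thioesterase Acot2 measured 2304, 2439.7 and 2327 with placebo and 2406, 1914 and 1678 with Lira, with overlap (adjusted p = 0.82). Cpt1a, a carnitine palmitoyltransferase of the mitochondrial outer membrane, measured 244 ± 22.4 and 207 ± 10.2, with all Lira arrays lower by a small margin (adjusted p = 0.87). In the list of lipolysis partners and lipid droplet coats, 7 differences were positive and 10 negative among 17 tested genes, and 0 had an unadjusted p under 0.05. Plin5, the droplet coat protein of oxidative muscle, measured 2396 ± 39.9 and 2121 ± 263, with overlap. Fitm2, which helps droplets to bud, measured 1881 ± 116 and 2111 ± 115, with overlap. The phospholipase Pnpla8 measured 1381 ± 34.4 and 1539.6 ± 118, all Lira arrays being higher (adjusted p = 0.87, limma). Among 12 nuclear receptors and cofactors of lipid use, 5 were positive and 7 negative, and 0 had an unadjusted p under 0.05. Rxrg measured 519 ± 62.9 and 436 ± 43.5, with overlap. Tcf15, a capillary transcription factor that with Meox2 drives endothelial fatty acid transport, measured 339 ± 38.9 and 403 ± 28.9 (adjusted p = 0.83, limma). The liver X receptor Nr1h3 measured 124 ± 6.49 and 156 ± 20.9 (adjusted p = 0.84, limma). For Tcf15 and Nr1h3 all Lira arrays were higher.

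In bulk tissue, fewer cells of a type and less RNA per cell cannot be told apart, so marker genes of the cell types that express the members were read beside them. Of 12 capillary endothelial markers 9 had positive and 3 negative differences, with a median of 0.11, beside -0.32 for the endothelial gene Gpihbp1. Their summed signal was 5484 to 6364 on placebo arrays and 6106 to 6429 on Lira arrays. Cldn5, a tight junction protein, was the only one of the 12 at an unadjusted p under 0.05 (log2 difference 0.47 ± 0.16, adjusted p = 0.66, limma), and Cdh5 and Pecam1 had overlapping groups. The part of endothelial RNA in the Gpihbp1 values was not tested.

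Of 10 fat cell markers 3 were tested, with summed signals of 47.2 to 151 on placebo and 50.6 to 136 on Lira arrays, and Adipoq, Lep, Cidec and Nnat had signals of at most 25.2 on any array. Of 6 brown fat markers, Ucp1 and Otop1 were too dim to be tested, at no more than 10.8 on any array, and the other 4 summed to 37759 to 41315 with placebo and 36891 to 43426 with Lira. Most of that sum came from Cox7a1 (means of 19184 and 18765) and Cox8b (18869 and 20022), cytochrome oxidase subunits that heart muscle also makes. Cidea, a lipid droplet protein, measured 1031 ± 56.4 and 914 ± 105 (SD, n = 3 per group), with overlapping groups. Fat cells express Fabp4 and Lipe strongly, and the part of fat cell RNA in their values was not tested. Macrophages express Lpl, Cd36, Fabp4 and Fabp5. Of 12 macrophage markers 11 had positive and 1 a negative difference, with a median of 0.22 and 0 past an adjusted p of 0.05 (limma). C1qc and Mpeg1, 2 of the 12, had an unadjusted p under 0.05 (limma), beside 6.02% of all genes tested. In 4, Adgre1, C1qa, C1qc and Ptprc, all Lira arrays were higher, beside 5.98% of all genes tested. The summed signal of the 12 was 4434 to 5186 with placebo and 5058 to 6089 with Lira, with overlap. The part of macrophage RNA in the members' values was not tested. Of 8 fibroblast markers 5 were positive and 3 negative. Their sum, 11299 to 11867 with placebo and 11869 to 14030.2 with Lira, did not overlap by a small margin. Dcn made up the greater part of it, at 6790 ± 101 and 7976 ± 703, and was the only 1 of the 8 whose groups did not overlap. Skeletal muscle markers were dim, with summed signals of 49.3 to 92.1. The sum of the 4 tested atrial markers was 2775 to 3234 with placebo and 1607 to 2284 with Lira. Nppa made up the greater part of it, at 2831 ± 214 and 1797 ± 382 (adjusted p = 0.16, limma). Of the 4, 3 had negative differences and 1, Myl4, a positive one. Myl4 measured 92.9 ± 15.3 and 114 ± 5.69, all Lira arrays being higher. Myl7 and Sln were too dim to be tested, at no more than 17.3 and 32.3 on any array. The part of atrial RNA in the arrays was not tested.

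All 10 cardiomyocyte markers had positive differences, with a median of 0.11, and 0 passed after adjustment. Ryr2 was the only one at an unadjusted p under 0.05 (0.025, adjusted p = 0.75, limma). It was also the only one with all Lira arrays higher, at 6741 ± 231 and 7699 ± 160 (SD, n = 3 per group). The summed signal of the 10 was 302635 on Lira replicate 2 and between 242174 and 259445 on the other 5 arrays. Fabp3, Fabp4, Slc27a1 and Lpl were each highest on that same array. Without it the log2 differences were -0.0049 for Fabp3, -0.02 for Fabp4, 0.08 for Slc27a1 and 0.07 for Lpl. Placebo replicate 3 was the other array that recurred. It was lowest of all for Cd36, Slc27a1 and Lpl and highest of all for Fabp5, Gpihbp1 and Vldlr. Lira replicate 1 was lowest for Fabp5, Gpihbp1 and Vldlr and highest for Lipe. Members therefore did not move as 1 block over the arrays.

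**Figure D4:**
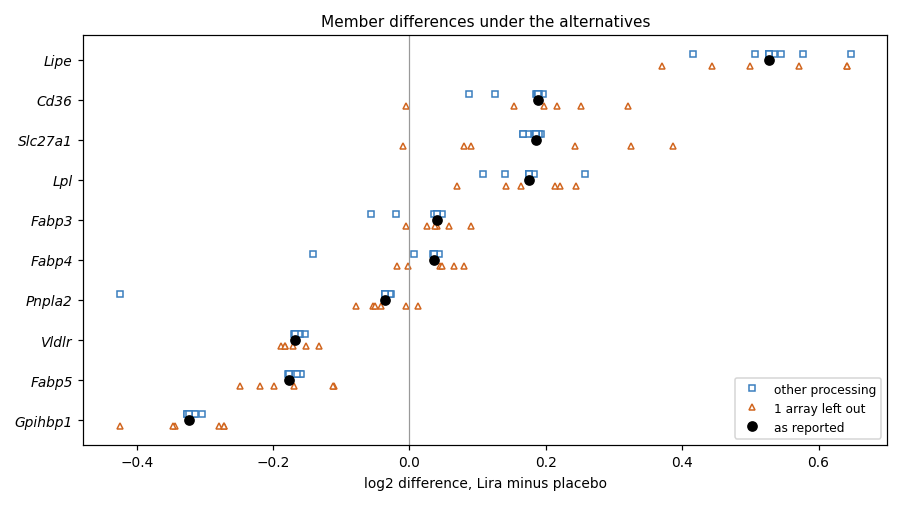
log2 difference of each member as reported (black circle), under the 11 other processing choices (open squares) and with 1 array left out (open triangles). Gpihbp1, Vldlr and Fabp5 stay below 0 and Lipe and Lpl above 0 in all of them, while Cd36, Slc27a1, Fabp3, Fabp4 and Pnpla2 reach the other side.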

How the data were processed

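Total RNA of the left ventricle of 6 mice, 3 per group, was hybridised to Affymetrix mouse arrays, 1 array per mouse. The authors deposited linear signal intensity values. The submitters' processing notes name Affymetrix Expression Console as the tool, and the sources used here give no version, summarisation algorithm or genome build for it. Every array has a 2% trimmed mean of 150, as checked on the values, so that only changes relative to other genes can be seen. Control probe sets (64) were removed. Of the 45101 in all, 34945 had 1 gene in the name table, 932 several and 9211 none, and 34741 took their current RefSeq symbol (GRCm38.p6) by gene ID. Each gene was represented by its probe set with the highest mean, and members with more than 1 probe set were also fitted per probe set. Values were taken as log2(signal + 16), which understates changes of dim genes. A filter removed the dimmest 30% of genes, so 12735 genes with a mean signal above 23.7 were tested. For probe sets the same filter lay at 18.3.

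The fit of Lira against placebo used limma 3.58.1 in R 4.3.3, with lmFit, eBayes (variance trend) and two-sided p-values adjusted by Benjamini-Hochberg at 0.05, and the fit was tested on simulated data. The alternatives tried and their effect are given with the limits. Members and lists were chosen with earlier results of these data known. All 10 members are named, and of each pathway list the 3 genes with the smallest p. Marker genes are named by level and further untested genes as examples. Replicate numbers do not pair the mice in the labels. Of list genes that were not tested, signals alone were read.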

Additional observations from a re-analysis of the deposited data

How the results depend on the processing

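With 3 mice per group and 17 alternatives (quantile normalisation, median centring, pseudocounts of 1 and 64, no filter or 50% left out, the mean of probe sets, array weights, a robust prior, eBayes without the trend, a replicate block and each array left out), 0 members passed an adjusted p of 0.05 in any, the smallest being 0.45. The count at an unadjusted p under 0.05, 2 as reported, was 4 with quantile normalisation, 1 with median centring, 4 with the mean of probe sets, 6 among all member probe sets, 3 with the replicate block, and 1 to 4 with arrays left out: 1 without Lira replicate 1, and 4 without placebo replicate 2 or without Lira replicate 3. The median member difference was -0.081 with the mean of probe sets, against 0.04 as reported, and -0.01 to 0.09 with arrays left out. Of 170 member values under an alternative, 161 kept their direction and their side of the threshold and 9 turned sign. These were Fabp3 with quantile normalisation (-0.056), with the mean of probe sets (-0.020) and without Lira replicate 2 (-0.0049); Fabp4 with the mean of probe sets (-0.14), without placebo replicate 1 (-0.0016) and without Lira replicate 2 (-0.019); Pnpla2 without placebo replicate 1 (0.013); and Cd36 (-0.0044) and Slc27a1 (-0.0091) without placebo replicate 3. With arrays left out these members ranged from -0.0049 to 0.090 (Fabp3), -0.019 to 0.080 (Fabp4), -0.079 to 0.013 (Pnpla2), -0.0044 to 0.32 (Cd36) and -0.0091 to 0.39 (Slc27a1). The cause was not tested. The probe sets of Fabp4, Lpl and Vldlr with an unadjusted p under 0.05 kept their signs in alternatives chosen after seeing the data, but both of Vldlr passed an unadjusted p of 0.05 in part of them only. Same-numbered arrays of the groups deviated from their group means with correlations of -0.03, 0.08 and -0.09. With 3 arrays per group these correlations cannot decide whether the numbers pair the mice, and the labels do not state a pairing. Array signals carry no detection calls here, so the dimmest member probe sets, 1432180_at of Lipe and 1428591_at of Pnpla2, could not be told from background.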
